A study of Mus musculus with 6 samples.

Results

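The genes of cholesterol synthesis, uptake and efflux were compared between WT and Piezo1cKO LSCs. The group was given as a list of 32 gene symbols, and all 32 were found among the 55367 genes of the deposited table and passed the filter on low values. They were divided by role into 7 mevalonate enzymes, 11 sterol enzymes, 5 genes of SREBP control, 5 genes of uptake, transport and storage, and 4 genes of the LXR and efflux arm. RNA was sequenced from 3 libraries of WT and 3 of Piezo1cKO LSCs, the leukemia stem cells of a mouse AML driven by the MLL-AF9 fusion. Both groups came from mice homozygous for the floxed Piezo1 allele and treated with poly(I:C), an inducer of interferon, and the Piezo1cKO group (Mx1-cre; Piezo1 fl/fl) also carried Mx1-cre, which interferon switches on in blood-forming and some other cells. Bone marrow progenitors of these mice received the MLL-AF9-YFP retrovirus and were transplanted into irradiated recipients. LSCs were taken from the bone marrow of the leukemic mice by a gate that the study defines as Lin-Sca-1-c-Kit+CD16/32hiCD34+YFP+. The age given for all samples is 8 to 10 weeks, which in the study is that of the donor mice and of the recipients used for transplantation. No label states that the 3 libraries of a group came from separate mice, so the p-values measure the spread between these libraries, which may be technical.

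Cells make cholesterol from acetyl-CoA. The mevalonate enzymes build farnesyl diphosphate, and the sterol enzymes join and cyclize it and convert lanosterol to cholesterol. When sterols in the endoplasmic reticulum are scarce, SCAP carries the SREBP transcription factors to the Golgi, where they are cut and released to raise the genes of synthesis and uptake, and INSIG proteins hold SCAP back when sterols are plentiful. When oxysterols build up, the LXR receptors raise the exporters ABCA1 and ABCG1 and MYLIP, which targets lipoprotein receptors for degradation.

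The deposited log2 values are shrunken: each value is drawn to the mean of its gene, so fold changes come out too small, and genes of low read number lose the most. The transform could be undone, and for the 32 members the recovered reads gave back the deposited values within 1e-06. Recovered reads per library ran from 14112218 to 15483602. Levels are given below as normalized reads, the recovered reads divided by a size factor per library, and differences as log2 fold changes of Piezo1cKO minus WT with their SE, either of the deposited values (deposited log2 fold change) or of the recovered reads. Adjusted p-values are from limma over all genes tested (limma-voom for the reads). *Piezo1* itself (chr8:122481698-122551329, minus strand) had 101, 92.8 and 109 normalized reads in the WT libraries and 36.6, 56.5 and 45.8 in the Piezo1cKO libraries, 45.9% of the WT mean, with no overlap between the groups and a log2 fold change of -1.13 ± 0.17 on recovered reads (adjusted p = 4.64e-05). These reads are summed over the whole gene, so they can include exons outside the deleted part.

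Of the 32 members, 9 rose and 12 fell in Piezo1cKO LSCs at an adjusted p under 0.05 on the deposited scale, and 11 did not pass. Across all 16746 genes tested, 31.6% rose and 31.4% fell by the same rule, so the share of members that passed, 65.6%, was close to that of all genes, 63.0%. The recovered reads gave the same call for each of the 32 members, against a background of 31.6% higher and 31.4% lower among 17352 genes. In normalized reads the groups did not overlap for 23 members (71.9%), with Piezo1cKO above in 9 and below in 14, while 66.2% of all genes tested had groups that did not overlap. With an absolute log2 fold change over 1 required as well, no member passed on the deposited scale, where 0.818% of all genes did. On recovered reads *Mvd* and *Stard4* passed both thresholds, 6.25% of the members against 24.9% of all genes, or 8.82% of the 10246 genes averaging 50 reads or more, a level reached by 30 of the 32 members. The median log2 fold change of the members was -0.04 on the deposited scale and -0.10 on recovered reads, beside 0.00 for all genes. Without regard to sign, the median on recovered reads was 0.40 for the members and 0.44 for all genes. Among genes averaging 50 reads or more it was 0.38 for the members and 0.27 for all genes.

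**Figure D1:**
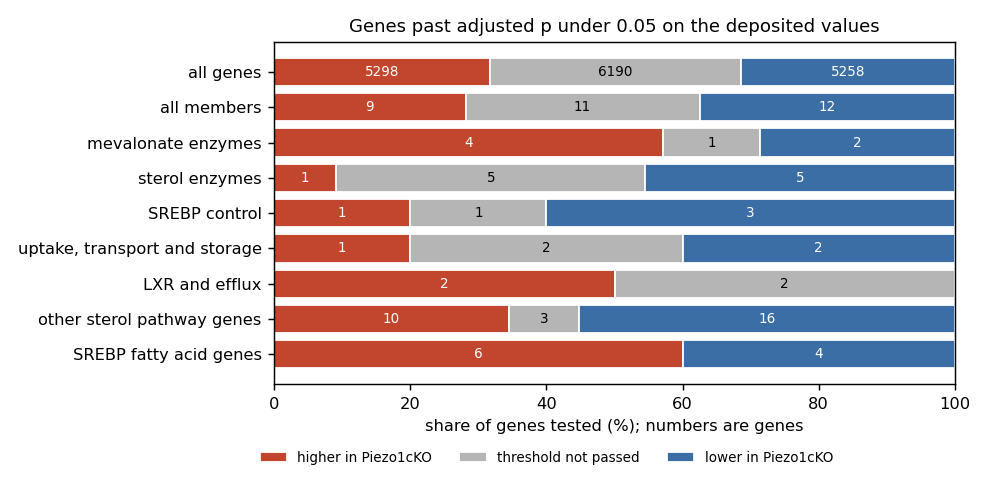
Share of the genes tested (horizontal axis, %) that were higher in Piezo1cKO LSCs (red), lower (blue) or past no threshold (grey) at an adjusted p under 0.05 on the deposited values, for all genes, all 32 members, the 5 arms and both comparison lists. The numbers in the bars are genes. The shares of the members lie near those of all genes, with 9 higher and 12 lower, while 4 of 7 mevalonate enzymes were higher and 5 of 11 sterol enzymes were lower.

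By arm, the calls on the deposited values were spread as follows. Of the mevalonate enzymes 4 rose and 2 fell, of the sterol enzymes 1 rose and 5 fell, of the SREBP control genes 1 rose and 3 fell, of the uptake, transport and storage genes 1 rose and 2 fell, and of the LXR and efflux genes 2 rose and none fell. Median log2 fold changes on recovered reads were 0.38, -0.13, -0.31, -0.22 and -0.20 in that order, and 0.15, -0.08, -0.19, -0.06 and 0.06 on the deposited scale. For the LXR and efflux arm the median thus had opposite signs on the scales, its 2 members below 0 having few reads. Across all genes tested, 31.6% rose and 31.4% fell by the same rule. With 4 to 11 genes an arm, these counts are a description, and the difference between arms was not tested.

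**Figure D2:**
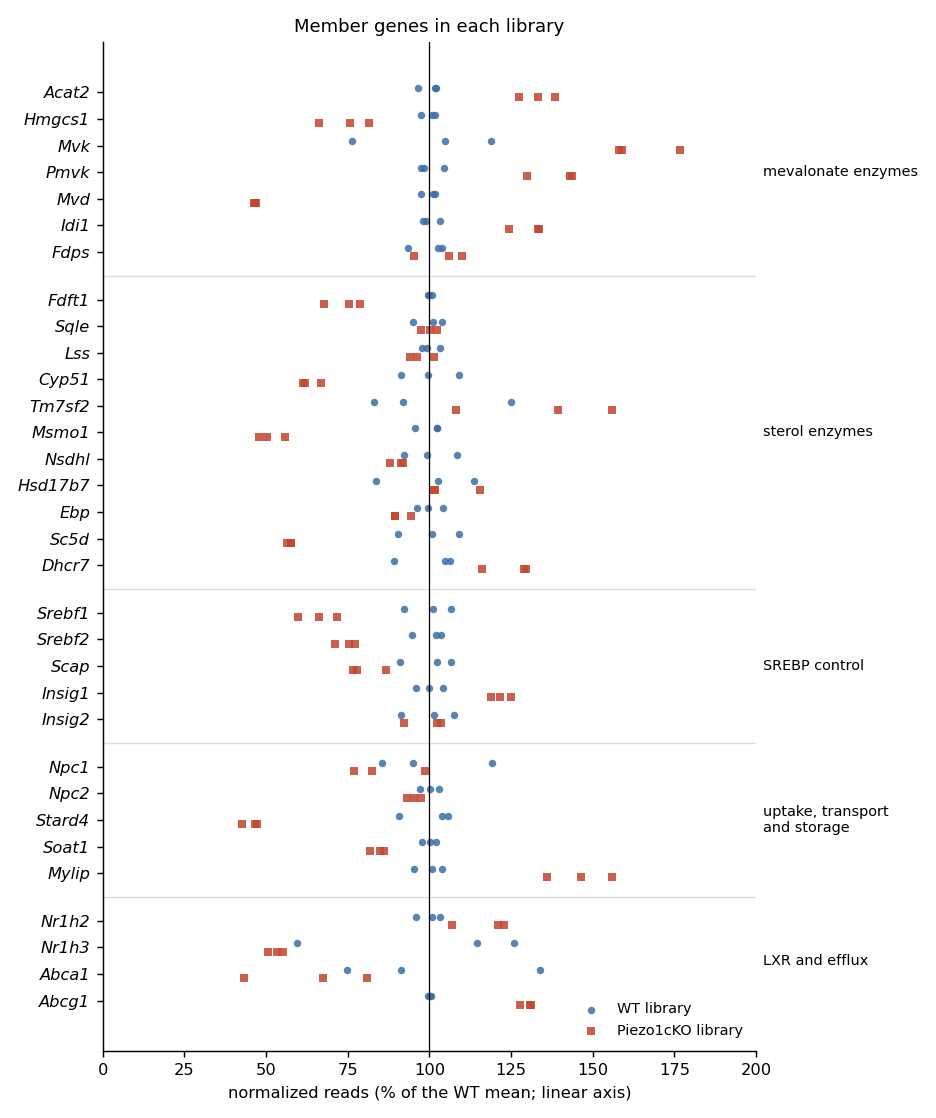
Normalized reads of each member in each library, as a percentage of the gene's WT mean (horizontal axis, linear, %), with 3 WT libraries (blue circles) and 3 Piezo1cKO libraries (red squares) per gene, ordered by arm. Among members with a mean of at least 50 reads, the Piezo1cKO libraries of *Stard4*, *Mvd*, *Msmo1* and *Sc5d* lie farthest below the WT mean on average, and those of *Mvk* farthest above it.

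The stretches just upstream of the start site are shown for 6 members, from RefSeq promoters on GRCm38.p6. These were chosen after their values were seen and are 5 enzymes that fell and *Insig1*, which rose, while those of enzymes that rose are counted below but not printed. Each runs from base -150 to base -1 before the annotated start site, 5′ to 3′ on the gene's strand. Capitals mark the sterol regulatory element TCACCCCAC, the NF-Y box CCAAT (read as ATTGG where it lies on the other strand) and the E-box CACGTG. More divergent forms of these sites were not searched for, so a stretch in lower case may still hold one. The stretches are chr13:119690201-119690350, plus strand, for *Hmgcs1*, chr8:122443423-122443572, minus strand, for *Mvd*, chr5:4104698-4104847, minus strand, for *Cyp51*, chr8:64733579-64733728, minus strand, for *Msmo1*, chr9:42264301-42264450, minus strand, for *Sc5d*, and chr5:28071262-28071411, plus strand, for *Insig1*.
Hmgcs1: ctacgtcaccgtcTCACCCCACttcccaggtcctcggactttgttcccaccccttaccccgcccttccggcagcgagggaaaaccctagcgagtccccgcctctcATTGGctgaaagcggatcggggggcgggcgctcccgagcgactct
Mvd: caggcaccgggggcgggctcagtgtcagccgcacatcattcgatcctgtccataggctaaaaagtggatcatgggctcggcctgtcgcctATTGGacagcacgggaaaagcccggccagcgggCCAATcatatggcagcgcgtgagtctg
Cyp51: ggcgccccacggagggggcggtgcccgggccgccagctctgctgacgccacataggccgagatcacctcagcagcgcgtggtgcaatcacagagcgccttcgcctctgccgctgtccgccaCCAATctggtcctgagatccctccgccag
Msmo1: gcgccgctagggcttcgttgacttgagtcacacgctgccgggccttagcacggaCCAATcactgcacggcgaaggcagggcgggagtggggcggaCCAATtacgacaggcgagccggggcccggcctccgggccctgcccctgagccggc
Sc5d: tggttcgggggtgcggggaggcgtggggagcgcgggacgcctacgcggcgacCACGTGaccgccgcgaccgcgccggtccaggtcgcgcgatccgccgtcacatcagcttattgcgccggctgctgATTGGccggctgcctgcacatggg
Insig1: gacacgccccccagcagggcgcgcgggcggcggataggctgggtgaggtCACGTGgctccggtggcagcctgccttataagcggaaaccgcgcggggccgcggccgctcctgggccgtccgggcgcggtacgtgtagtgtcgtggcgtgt

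Promoter windows of 300 bases (250 before the start site and 50 after) were found for 26 of the 32 members. Searched on both strands, TCACCCCAC was found for 1 of these 26 genes, *Hmgcs1*, and in 0.55% of all 32851 promoter windows. With 1 base allowed to differ it was found for 7 of the 26 genes and in 9.82% of windows. CCAAT was found for 21 of the 26 genes and in 37.4% of windows, and CACGTG for 6 of the 26 genes and in 7.15% of windows. Some genes have several windows, and counted per gene these shares are 0.61%, 11.1%, 41.1% and 8.09%. The search allowed these motifs to overlap. The CCAAT-bearing windows include those of genes that fell (*Hmgcs1*, *Mvd*, *Cyp51*, *Msmo1*, *Sc5d*) and of genes that rose (*Idi1*, *Mvk*, *Pmvk*, *Dhcr7*, *Insig1*), the last with its CCAAT outside the stretch printed above.

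The mevalonate enzymes moved in opposite directions along one chain of reactions. *Mvd* encodes mevalonate diphosphate decarboxylase, which makes isopentenyl diphosphate, and lies at chr8:122433601-122443422, minus strand (GRCm38), 38.3 kb from *Piezo1*, a nearness whose part in its value was not tested. It had 276.5, 289 and 287 normalized reads in the WT libraries and 132, 133 and 133 in the Piezo1cKO libraries. All Piezo1cKO libraries lay within a narrow range at 46.7% of the WT mean. Its deposited log2 fold change was -0.49 ± 0.04 (adjusted p = 1.40e-09) and -1.10 ± 0.09 on recovered reads (adjusted p = 6.32e-08). *Hmgcs1*, the cytosolic HMG-CoA synthase, fell less. Its normalized reads were 311.5, 299 and 309 in WT and 249.7, 232 and 202.5 in Piezo1cKO libraries, 74.4% of the WT mean without overlap, with a deposited log2 fold change of -0.21 ± 0.04 (adjusted p = 1.91e-04) and -0.43 ± 0.09 on recovered reads. Of its exonic bases 12.1% are shared with the antisense gene *Gm48342*, which had at most 5.8 normalized reads in any library.

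Both kinases between these steps rose. *Mvk*, mevalonate kinase, had 60.2, 93.9 and 82.7 normalized reads in WT and 125, 125 and 139 in Piezo1cKO libraries. Every Piezo1cKO library was above every WT library, and WT replicate 1 was the lowest of the 6. The deposited log2 fold change was 0.23 ± 0.04 (adjusted p = 1.78e-04) and 0.74 ± 0.15 on recovered reads (adjusted p = 5.88e-04), the largest rise among the members on the reads. *Pmvk*, phosphomevalonate kinase, had 693, 646 and 653 normalized reads in WT and 862, 954 and 950.4 in Piezo1cKO libraries, with a deposited log2 fold change of 0.30 ± 0.04 (adjusted p = 8.33e-07). The groups were again apart, at 139% of the WT mean. Of the 3 enzymes that lead from mevalonate to isopentenyl diphosphate, the first 2 thus rose and the last, *Mvd*, fell.

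*Acat2*, the cytosolic thiolase that starts the pathway, had 1053, 996 and 1049.6 normalized reads in WT and 1431, 1375 and 1316 in Piezo1cKO libraries, 133% of the WT mean, with a deposited log2 fold change of 0.28 ± 0.03 (adjusted p = 7.21e-07). The groups did not overlap. Of its 50-base stretches 39.1% also occur in other genes, most in *Acat3*, so reads of the copies could be split or dropped in counting, but *Acat3* itself had at most 3.8 normalized reads. *Idi1*, isopentenyl diphosphate isomerase, had 136, 130.2 and 129 normalized reads in WT and 175.5, 164 and 176 in Piezo1cKO libraries and a deposited log2 fold change of 0.15 ± 0.04 (adjusted p = 0.00172), with no overlap. It shares 25.3% of its 50-base stretches with other genes, most with *Gm13502*, which had at most 2.1 reads. *Fdps*, farnesyl diphosphate synthase, had 176, 178 and 159.7 reads in WT and 188, 163 and 181 in Piezo1cKO libraries. Its groups overlapped and it did not pass (adjusted p = 0.646 on the deposited values), the 95% confidence interval of its log2 fold change on recovered reads being -0.16 to 0.26. Of its exonic bases 26.7% overlap *Gm43738*, which is listed at 0 in all libraries.

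Of the sterol enzymes 5 fell, 4 of them in steps after lanosterol. *Msmo1*, the methylsterol monooxygenase that starts removal of the C4 methyl groups (chr8:64718139-64733792, minus strand), had 870.4, 931.5 and 933 normalized reads in the WT libraries and 509, 435 and 458 in the Piezo1cKO libraries. The highest Piezo1cKO library had far fewer reads than the lowest WT library, and the mean was 51.2% of WT. The deposited log2 fold change was -0.60 ± 0.04 (adjusted p = 1.74e-10), the largest difference among the members there, and -0.97 ± 0.06 on recovered reads (adjusted p = 4.13e-09). *Sc5d*, sterol C5-desaturase (chr9:42251595-42264256, minus strand), had 720.0, 646 and 780.2 normalized reads in WT and 412, 403 and 411 in Piezo1cKO libraries. Its Piezo1cKO libraries lay close together at 57.1% of the WT mean, with a deposited log2 fold change of -0.48 ± 0.04 (adjusted p = 8.23e-09) and -0.81 ± 0.07 on recovered reads. *Cyp51*, lanosterol 14-alpha-demethylase (chr5:4081145-4104746, minus strand), had 385, 322 and 351 in WT and 236, 218 and 217 in Piezo1cKO libraries, 63.4% of the WT mean without overlap. Its deposited log2 fold change was -0.33 ± 0.04 (adjusted p = 1.38e-06) and -0.66 ± 0.09 on recovered reads.

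*Fdft1*, squalene synthase and the first committed step towards sterols, had 197, 195 and 195 normalized reads in WT and 133, 154 and 147.5 in Piezo1cKO libraries, 74% of the WT mean. The groups were apart, with a deposited log2 fold change of -0.18 ± 0.04 (adjusted p = 4.49e-04). Of its exonic bases 18.3% overlap *Ctsb* on the opposite strand, and since the library kit does not mark strand, reads there cannot be assigned. *Ctsb* had 21919, 22055 and 21743.5 normalized reads in WT and 20664, 20859.5 and 20072 in Piezo1cKO libraries, 93.7% of WT, and its part in the *Fdft1* value was not tested. *Ebp*, the sterol isomerase, had 1038, 1087 and 1003 normalized reads in WT and 985, 932 and 933 in Piezo1cKO libraries. Its groups did not overlap, but the difference was small (-0.09 ± 0.03 on the deposited scale, adjusted p = 0.026). The call on *Ebp* was lost on the deposited scale when 1 library was left out, with an adjusted p of 0.0508 without WT replicate 1, 0.109 without WT replicate 2, and 0.0840 without either Piezo1cKO replicate 2 or 3.

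*Dhcr7*, 7-dehydrocholesterol reductase, which makes the last reduction to cholesterol, was the sterol enzyme that rose. It had 364, 369 and 309.8 normalized reads in WT and 403, 448 and 451 in Piezo1cKO libraries, 125% of the WT mean without overlap, with a deposited log2 fold change of 0.18 ± 0.04 (adjusted p = 0.00125) and 0.33 ± 0.08 on recovered reads. SC5D makes 7-dehydrocholesterol and DHCR7 uses it, and their mRNAs moved in opposite directions. Per exon length, *Sc5d* stood at 9.86 ± 0.92 RPKM (SD, n = 3; recovered reads scaled to exon length and to the library's total) in WT and 5.7 ± 0.068 in Piezo1cKO libraries, and *Dhcr7* at 4.01 ± 0.38 and 5.07 ± 0.32.

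The other 5 sterol enzymes did not pass. *Sqle*, squalene epoxidase, had 303, 311 and 285 normalized reads in WT and 299.8, 291 and 306 in Piezo1cKO libraries, and *Lss*, lanosterol synthase, had 309, 314 and 326 in WT and 298, 304 and 320.5 in Piezo1cKO libraries. The groups overlapped for both, with 95% confidence intervals of the log2 fold change of -0.16 to 0.16 and -0.19 to 0.11 on recovered reads. These enzymes stand between *Fdft1* and *Cyp51*, both of which fell. *Nsdhl* and *Hsd17b7*, which act after MSMO1 in removing the C4 methyl groups, had log2 fold changes of -0.14 and 0.10 on recovered reads (adjusted p = 0.0914 and 0.556 on the deposited scale). The groups of *Nsdhl* were just apart (359, 392 and 333 normalized reads in WT and 318, 329.5 and 332 in Piezo1cKO libraries), and it passed as lower without WT replicate 3 (adjusted p = 0.0373). *Tm7sf2*, a sterol C14 reductase, had 56.3, 37.3 and 41.4 normalized reads in WT and 62.7, 48.7 and 70.2 in Piezo1cKO libraries, with overlap and an adjusted p of 0.0652. It passed as higher without Piezo1cKO replicate 2 (adjusted p = 0.0292) or without WT replicate 1 (adjusted p = 0.0290), and 12.1% of its exonic bases overlap *Vps51* on the same strand.

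**Figure D3:**
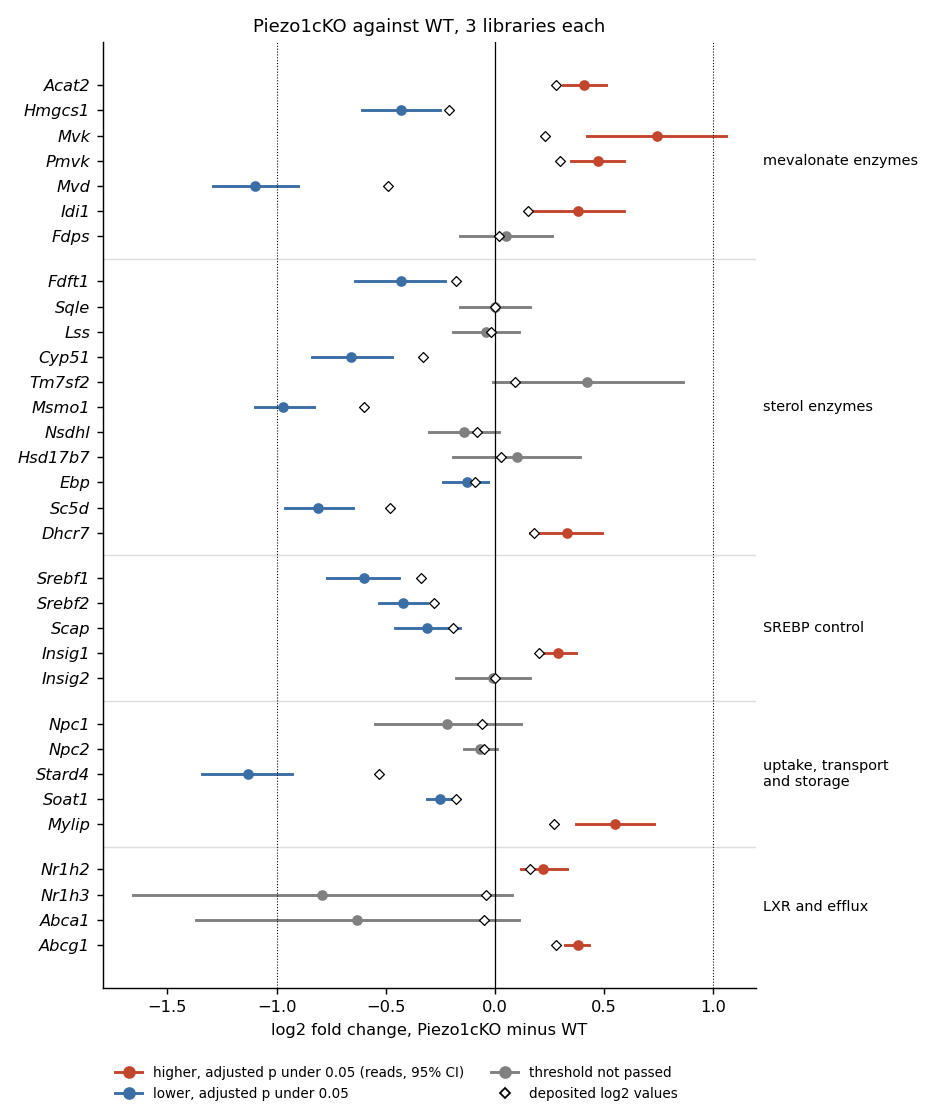
Log2 fold change of each member (horizontal axis, Piezo1cKO minus WT, 3 libraries each), ordered by arm. Filled circles with bars are the recovered reads with 95% confidence intervals, coloured by the call at an adjusted p under 0.05 (red higher, blue lower, grey not passed), open diamonds are the deposited values, and dotted lines mark -1 and 1. Only *Mvd* and *Stard4* have circles beyond a dotted line, and the wide grey bars are those of *Nr1h3* and *Abca1*.

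Of the 5 SREBP control genes 3 fell, the transcription factors and their escort. *Srebf2*, whose product mainly drives the cholesterol genes, had 1093.5, 1197 and 1178 normalized reads in the WT libraries and 821, 891 and 871 in the Piezo1cKO libraries. *Srebf1*, whose products mainly drive the fatty acid genes, had 490.0, 567 and 538 in WT and 318, 352 and 381 in Piezo1cKO libraries. For both, each Piezo1cKO library lay below each WT library, at 74.5% of the WT mean for *Srebf2* and 65.8% for *Srebf1*. The deposited log2 fold change of *Srebf2* was -0.28 ± 0.03 (adjusted p = 1.30e-06) and -0.42 ± 0.05 on recovered reads. That of *Srebf1* was -0.34 ± 0.04 (adjusted p = 1.39e-06) and -0.60 ± 0.08 on recovered reads, with its isoforms counted together. *Scap*, which escorts the SREBPs, had 593, 694 and 665 normalized reads in WT and 498, 564 and 506 in Piezo1cKO libraries, 80.3% of the WT mean (deposited log2 fold change -0.19 ± 0.04, adjusted p = 5.97e-04). The groups did not overlap, and 13.2% of its exonic bases overlap *5830462I19Rik* on the opposite strand, which had at most 6.8 normalized reads.

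Of the INSIG genes, which retain SCAP, *Insig1* rose and *Insig2* did not pass. *Insig1*, a classical SREBP target, had 1897, 1821 and 1744 normalized reads in WT and 2276, 2166 and 2216 in Piezo1cKO libraries. The lowest Piezo1cKO library was above the highest WT library, at 122% of the WT mean, with a deposited log2 fold change of 0.20 ± 0.03 (adjusted p = 1.28e-05). *Insig2* had 393, 334 and 370.4 normalized reads in WT and 379, 374 and 337 in Piezo1cKO libraries, with overlapping groups and a 95% confidence interval of -0.18 to 0.16 on recovered reads. In each library *Insig1* was the more abundant, at 39.5 ± 1.6 RPKM (SD, n = 3) in WT and 48.7 ± 1.2 in Piezo1cKO libraries, beside 7.06 ± 0.56 and 7.11 ± 0.45 for *Insig2*.

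Among the uptake, transport and storage genes the largest change was that of *Stard4*, a soluble carrier that moves cholesterol between membranes and a known SREBP target. It had 349, 299.7 and 343.5 normalized reads in the WT libraries and 156, 154 and 141 in the Piezo1cKO libraries. The Piezo1cKO libraries were close to each other at 45.5% of the WT mean, the lowest share among members with a mean of at least 50 reads. The deposited log2 fold change was -0.53 ± 0.04 (adjusted p = 2.03e-09) and -1.13 ± 0.10 on recovered reads (adjusted p = 9.70e-08). *Soat1*, which esterifies cholesterol for storage in droplets, had 8472, 8114 and 8325 normalized reads in WT and 7136, 6793 and 7040.3 in Piezo1cKO libraries. All 3 Piezo1cKO libraries were lower, at 84.2% of the WT mean (deposited log2 fold change -0.18 ± 0.02, adjusted p = 1.09e-06).

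*Mylip*, the E3 ligase through which LXR lowers lipoprotein uptake, rose. It had 211, 217 and 199 normalized reads in WT and 284, 306 and 326 in Piezo1cKO libraries, 146% of the WT mean without overlap, and a deposited log2 fold change of 0.27 ± 0.04 (adjusted p = 1.02e-05) and 0.55 ± 0.08 on recovered reads. *Npc1* and *Npc2*, the membrane and soluble proteins that move cholesterol out of the lysosome, did not pass. *Npc1* had 83.4, 92.8 and 116 normalized reads in WT and 96.1, 75.1 and 80.4 in Piezo1cKO libraries. *Npc2* had 2848, 3017 and 2936 in WT and 2732, 2799.5 and 2858 in Piezo1cKO libraries. The groups overlapped for both, and the 95% confidence intervals on recovered reads were -0.55 to 0.12 and -0.14 to 0.01.

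In the LXR and efflux arm, the members with many reads rose and those with few did not pass. *Abcg1*, which exports cholesterol to HDL, had 5977, 6008 and 6024 normalized reads in the WT libraries and 7855, 7863 and 7665 in the Piezo1cKO libraries. The groups were far apart relative to their spread, at 130% of the WT mean, with a deposited log2 fold change of 0.28 ± 0.02 (adjusted p = 1.95e-09) and 0.38 ± 0.03 on recovered reads. *Nr1h2*, which encodes LXR beta, had 2642, 2777 and 2839 in WT and 2944, 3327 and 3380.2 in Piezo1cKO libraries, 117% of the WT mean without overlap (deposited log2 fold change 0.16 ± 0.03, adjusted p = 5.48e-04). *Nr1h3*, which encodes LXR alpha, had only 6.8, 13.1 and 14.4 normalized reads in WT and 6.3, 5.8 and 6.1 in Piezo1cKO libraries. *Abca1*, the exporter to lipid-poor apolipoproteins, had 16.5, 24.2 and 13.5 in WT and 14.6, 7.8 and 12.2 in Piezo1cKO libraries. The groups were just apart for *Nr1h3* and overlapped for *Abca1*. At this depth a difference was not detectable for either (adjusted p = 0.0876 and 0.132 on the deposited scale), and the 95% confidence intervals on recovered reads ran from -1.66 to 0.08 and from -1.37 to 0.11. *Nr1h3* passed as lower without WT replicate 1 (adjusted p = 0.0230). Of the genes named above as raised by LXR, *Abcg1* and *Mylip* thus rose and *Abca1* had too few reads to judge. These are not all the targets of LXR, and *Srebf1*, described above, fell (-0.60 ± 0.08 on recovered reads).

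**Figure D4:**
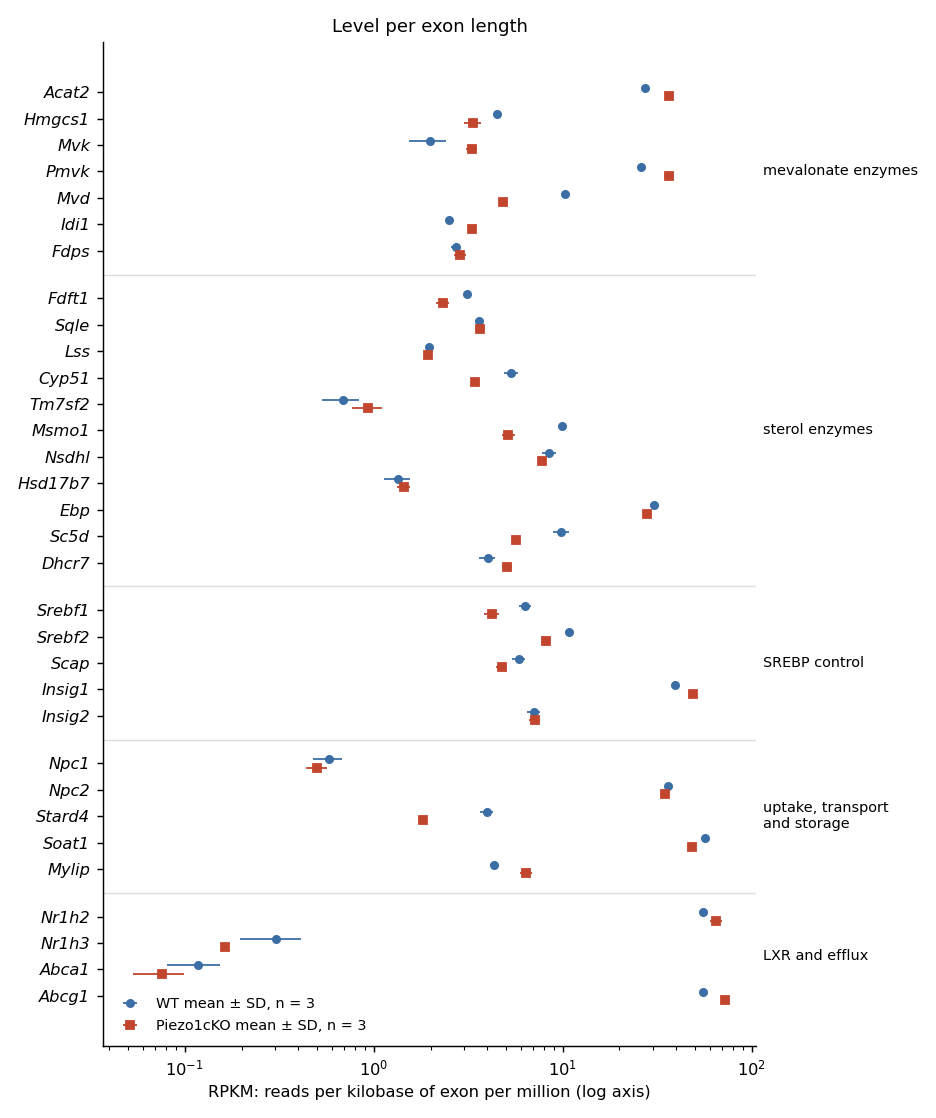
Level of each member in RPKM (horizontal axis, log scale), mean ± SD of 3 libraries, with WT as blue circles and Piezo1cKO as red squares, ordered by arm. *Abcg1* and *Nr1h2* stand above 50 RPKM in both groups, *Soat1* in WT only, and *Abca1* stands lowest in both.

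Per exon length the members spanned a wide range of levels. In WT libraries *Soat1* (56.9 ± 1.1), *Abcg1* (55.2 ± 0.34) and *Nr1h2* (55.1 ± 2.1) had the highest levels in RPKM (SD, n = 3), and differed from each other by about their spread. In Piezo1cKO libraries the order among these became *Abcg1* (72.5 ± 1), *Nr1h2* (65.2 ± 4.9) and *Soat1* (48.5 ± 1.2). *Insig1*, at 39.5 ± 1.6 in WT, stood at 48.7 ± 1.2 in Piezo1cKO libraries, within its spread of *Soat1*. *Npc2*, *Ebp*, *Acat2* and *Pmvk* followed in both groups, between 26.0 and 36.2 in WT. The lowest were *Abca1* at 0.117 ± 0.036 and *Nr1h3* at 0.305 ± 0.11 in WT, followed by *Npc1* (0.578 ± 0.1) and *Tm7sf2* (0.685 ± 0.15), whose means lay within about 1 SD of each other. Among the enzymes, *Mvd* stood above *Hmgcs1*, *Mvk* and *Idi1* in WT (10.2 ± 0.26 against 4.47 ± 0.09, 1.98 ± 0.43 and 2.52 ± 0.065), and at 4.84 ± 0.036 in Piezo1cKO libraries it was nearer to theirs (3.37 ± 0.35, 3.3 ± 0.21 and 3.33 ± 0.13).

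Other genes of the pathway were read from a list of 32 further sterol genes, of which 29 were tested. On the deposited scale 10 rose, 16 fell and 3 did not pass. Thus 89.7% passed, beside 63.0% of all genes (31.6% higher and 31.4% lower). The list's median log2 fold change was -0.16 on recovered reads. *Vldlr*, a lipoprotein receptor, had 61.1, 34.3 and 53.9 normalized reads in WT and none in any Piezo1cKO library, at least 16.4-fold lower against a floor of 3 reads per library, and the list's median was also -0.16 with *Vldlr* at that bound. *Rnf145*, a ligase of the endoplasmic reticulum linked to sterol sensing, had 487, 473 and 482 in WT and 271, 275 and 259.5 in Piezo1cKO libraries, a log2 fold change of -0.84 ± 0.07 on recovered reads (adjusted p = 4.45e-08). *Gramd1c*, of a family that carries cholesterol from the plasma membrane inwards, had 26.2, 31.3 and 30.8 normalized reads in WT and 11.5, 17.5 and 12.2 in Piezo1cKO libraries (-1.08 ± 0.28, adjusted p = 0.0031 on recovered reads). Its relatives *Gramd1a* and *Gramd1b*, which had far more reads, rose (0.38 ± 0.05 and 0.37 ± 0.05 on recovered reads, adjusted p = 6.30e-06 and 1.17e-05). The groups did not overlap for *Vldlr*, *Rnf145* or *Gramd1c*, but these were picked for large differences, and 66.2% of all genes tested had groups that did not overlap. Lower calls in this list outnumbered the higher ones as they did among the members.

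Fatty acid genes that SREBP also drives were read from a second list. Of 12 listed, 10 were tested, and 6 rose and 4 fell on the deposited scale, where 63.0% of all genes passed. On recovered reads 3 of the 10 were higher past both thresholds and 0 were lower. Of all 17352 genes, 2212 were higher and 2110 lower by this rule. Among the 10246 genes averaging 50 reads or more, 411 were higher and 493 lower. The list's median log2 fold change was 0.38 on recovered reads. *Acss2*, which makes cytosolic acetyl-CoA from acetate, had 49.5, 55.5 and 39.4 normalized reads in WT and 299.8, 260.3 and 255 in Piezo1cKO libraries (2.50 ± 0.16 on recovered reads, adjusted p = 2.81e-09). *Fads2* and *Fads1* are the desaturases of polyunsaturated fatty acids. *Fads2* had 78.6, 90.8 and 107 in WT and 450.2, 439 and 451 in Piezo1cKO libraries, and *Fads1* 95.1, 85.8 and 71.2 in WT and 304, 286 and 249 in Piezo1cKO libraries. Their log2 fold changes were 2.28 ± 0.11 and 1.73 ± 0.13 on recovered reads (adjusted p = 1.19e-10 and 2.72e-08). *Lpin1*, a phosphatidate phosphatase, and *Elovl6*, an elongase, rose by 0.78 and 0.52 on the log2 scale of recovered reads (adjusted p = 8.06e-06 and 4.31e-05). These 5 genes were picked for the largest differences in the list, and their groups did not overlap, as for 66.2% of all genes tested. All 5 were higher in Piezo1cKO LSCs while *Srebf1* and *Srebf2* were lower. The 4 genes of the list that fell, as *Srebf1* and *Srebf2* did, had smaller differences, down to -0.50 on recovered reads.

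Markers of the gate and of other cell types also moved between the groups. *Kit*, *Cd34* and the other 5 LSC markers were present in every library, and the list's summed normalized reads ran from 14535 to 14842 in WT and from 18100.0 to 18435 in Piezo1cKO libraries, with 3 of 7 markers higher and 2 lower. The 7 mature neutrophil markers summed to between 2466 and 2495 in WT and between 287 and 315 in Piezo1cKO libraries, with 5 of 6 tested lower. The 6 mast cell and basophil markers summed to between 1999 and 2107 in WT and between 7680.0 and 7906 in Piezo1cKO libraries, with 5 of 6 higher. The 10 macrophage markers summed to between 912 and 993 in WT and between 935 and 1061 in Piezo1cKO libraries, with 3 of 5 tested higher and *C1qa* and *Cd5l* at 0 in all libraries. B cell markers summed to between 1535 and 1597 in WT and between 2404 and 2627 in Piezo1cKO libraries, nearly all from *Cd79b*. The 6 erythroid markers summed to between 88.3 and 108 in WT and between 25.4 and 34.1 in Piezo1cKO libraries, with 2 of 4 tested lower, and the 5 T cell markers to between 5.8 and 10.7 in WT and between 0.0 and 1.9 in Piezo1cKO libraries, with the 1 tested lower. The part of these shifts in the members' values was not tested, and fewer cells of a type and less RNA per cell cannot be told apart in bulk RNA.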

How the data were processed

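Per the labels, reads were trimmed with fastp (version 0.20.1), mapped to GRCm38 with HISAT2 (version 2.2.1) and counted with featureCounts (version 2.0.1), and the authors normalized the counts with DESeq2 (version 1.28.1). The deposited values are log2 values in the form of a regularized log, 1 column per library. The name of the transform and the strand setting are not given in the sources used here. Of 55367 genes, 28965 are listed at 0 in all libraries.

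The deposited log2 values of 16746 genes with a mean of at least 1 entered a limma fit (limma 3.58.1 in R 4.3.3; lmFit, eBayes with a trend, no covariates, Benjamini-Hochberg adjustment). A count model had been foreseen only if the table held counts. The transform was undone from its formula: 94.8% of values came out within 0.1 of a whole number before rounding, and 99.94% of genes with values gave back the deposited values. On simulated reads of 24694 genes, 99.9% of reads came back exactly. Recovered reads of 17352 genes with at least 10 reads in total were fitted with limma-voom and median-of-ratios size factors. Of 200 genes changed in simulated data of 3 against 3 libraries, limma found 193 and limma-voom 188. The fits also called 8 and 9 unchanged genes, in that order. The data held 16746 genes for limma and 17370 for limma-voom. Detection on shrunken values, or of differences as small as those of most members, was not tested. RPKM values were computed from the recovered reads with exon lengths of GENCODE M21 on GRCm38. Libraries of a group differed by a mean chi-square per gene of 1.56 to 2.80, where counting noise alone gives about 1. Libraries of different groups differed by 51.3 to 56.0. None was dropped as a repeat, but these values do not show whether the libraries of a group came from separate mice.

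Samples were grouped by the labels. The members and lists were chosen with earlier results of these data known. Named genes are the 32 members, *Piezo1*, and at most 5 genes each of the other sterol and fatty acid lists with the largest absolute log2 fold change past an adjusted p under 0.05 on recovered reads, of which 2 are not reported here. *Ctsb*, *Acat3* and other genes that overlap or resemble a member were added for that reason, and *Gramd1a* and *Gramd1b* as relatives of *Gramd1c*. With 3 libraries per group, an exact permutation test gives no two-sided p under 0.1, so none was used. Alternatives were recovered reads, library totals, median centring, other filters, a replicate block, each library left out and a fold change threshold. Python was version 3.11.15, with pandas (version 2.3.3) and matplotlib (version 3.10.9).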

Additional observations from a re-analysis of the deposited data

How the results depend on the processing

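Of the 32 members, 27 kept their side of the threshold and their direction under each of the 19 alternatives that could be fitted to them, and no called member changed sign. The exceptions were *Ebp*, *Tm7sf2*, *Nsdhl*, *Nr1h3* and *Npc2*. *Nr1h3* and *Abca1* fell out of the test at a mean of at least 5. Requiring an absolute log2 fold change over 1 left 43 higher and 94 lower genes on the deposited scale and 2212 and 2110 on recovered reads. Among the members it left 0 and 0 on the deposited scale and 0 higher and 2 lower on recovered reads, 1 in the mevalonate and 1 in the uptake, transport and storage arm. In the other sterol list it left 0 on the deposited scale and 2 higher and 2 lower on recovered reads, and in the fatty acid list 1 and 3 higher and 0 lower. Added after seeing the data were the recovered reads with both thresholds, with a library left out, and with a mean of at least 50 reads. With a library left out, 1 to 2 sterol enzymes were higher (2 without WT replicate 1 or Piezo1cKO replicate 2, *Tm7sf2* being added) and 0 to 1 LXR and efflux genes were lower (*Nr1h3*, without WT replicate 1). The shrinkage of the deposited values makes the called members' differences a median of 0.59 of those on recovered reads. Median centring moved no member's call.

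Same-numbered libraries of the groups had weak positive correlations of 0.195, 0.161 and 0.070 in their deviations from the group means. Each was the highest for that number, the other pairs running from -0.170 to 0.030. What the replicate numbers share was not tested. With a replicate block 10 members were higher and 13 lower on the deposited scale and 9 and 13 on recovered reads, the added ones being *Tm7sf2* (adjusted p = 0.0398), which made 2 higher sterol enzymes, and *Npc2* (adjusted p = 0.0487). Depth limits *Nr1h3* and *Abca1*, with at most 24.2 normalized reads in any library.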

Other observations

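*Mvd* lies 38.3 kb from *Piezo1* on chromosome 8, with the recombined *Piezo1* allele present in the Piezo1cKO group only. This distance was noticed after the values were seen. Of 14 protein-coding genes tested within 250 kb of *Piezo1*, 5 rose and 6 fell on recovered reads at an adjusted p under 0.05, a rule that 62.9% of all genes passed. Their median log2 fold change was -0.06, and *Mvd* (-1.10 ± 0.09) was the second lowest. *Snai3*, 20965 bases from *Piezo1*, was at -3.22 ± 0.47 (adjusted p = 2.56e-05), and *Ctu2*, which overlaps the end of *Piezo1*, at -0.93 ± 0.08 (adjusted p = 1.93e-07). *Cyba*, beside *Mvd* on the far side, was at 0.10 ± 0.03 (adjusted p = 0.0155), and *Rnf166*, 5.6 kb from *Piezo1*, at -0.12 ± 0.03 (adjusted p = 0.00595). *Zfpm1*, 144.4 kb from *Piezo1*, had the largest rise, at 1.74 ± 0.47 (adjusted p = 0.00475). Genes with falls near or beyond that of *Mvd*, genes with differences of about 0.1 and a gene with a large rise thus all lay within this stretch. The part of the position of *Mvd* in its value was not tested.

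Both proteases that cut the SREBPs in the Golgi were measured in the list of other sterol genes and moved in opposite directions. They were picked out after their values were seen. *Mbtps1*, the site-1 protease, had 987, 1032 and 1012 normalized reads in WT and 839.9, 825 and 885 in Piezo1cKO libraries (-0.25 ± 0.05 on recovered reads, adjusted p = 3.27e-04). *Mbtps2*, the site-2 protease, had 399.8, 358 and 379 in WT and 468, 420.1 and 449.7 in Piezo1cKO libraries (0.23 ± 0.07, adjusted p = 0.00843). Neither pair of groups overlapped, which was so for 66.2% of all genes tested.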
